A study of Mus musculus with 49 samples.

Results

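The response of wild-type (WT) mouse embryonic stem cells to p53 activation was measured by RNA sequencing in 4 libraries of the 49 analysed in the series, chosen by their genotype label. In 2 libraries p53 had been activated with 1 µM doxorubicin for 4 h, and 2 libraries came from untreated cells. Both groups were the TC-1 line of strain 129S6/SvEvTac, grown in serum with leukemia inhibitory factor on gelatin, and neither carried the Trim24 degron tag or received the degrader dTAG13. The line stands for stem cells of 1 genotype, and the labels call the 2 libraries of a group biological replicates. Doxorubicin is a DNA-intercalating topoisomerase II poison, and none of the 4 libraries lacked p53, so changes that need p53 and other effects of the drug cannot be told apart. The question was which genes respond when p53 is activated in cells with intact Trim24, the p53 cofactor that the study examines.

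The p53 protein is a transcription factor that is kept low by the ubiquitin ligase Mdm2, is stabilized by damage kinases, and binds a response element made of a pair of half-sites to activate genes of growth arrest, cell death, repair and metabolism. Many of its targets, Mdm2 among them, feed back on p53 itself. In embryonic stem cells it is also known to act on genes of the pluripotent state, which Pou5f1, Sox2 and Nanog maintain.

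Levels are given for each library in CPM, the read count scaled to a common library size with no prior count added, and changes as log2 fold changes of activated over untreated cells, with their standard error (SE), on the deposited log2 scale. That scale includes a prior count of 8, which pulls changes of low genes toward 0. A gene was called changed at an adjusted p under 0.01 (limma, Benjamini-Hochberg over 16448 genes tested) and a log2 fold change beyond 0.75 in either direction. Reads over genes were 32144025 and 31128074 in the activated libraries and 34589498 and 35185256 in the untreated libraries. One read was worth about 0.03 CPM, and counting error limits genes under 1 CPM. Markers of embryonic stem cells were present in both groups: Pou5f1 stood at 889 and 853 CPM in activated cells and 898 and 1025 CPM in untreated cells. Markers of other cell types were also detected, at similar summed levels in both groups: the 14 feeder genes summed to 723 and 741 CPM in activated cells and 694 and 686 CPM in untreated cells, mostly from Vim and Fn1, and 15 primitive endoderm genes to 1247 and 1284 CPM in activated cells and 1289 and 1362 CPM in untreated cells. Neuroectoderm genes summed to 263 and 249 CPM in activated cells and 196 and 232 CPM in untreated cells. Of the feeder genes Dcn, Lum, S100a4 and Twist2 had 1 to 7 reads in each activated library and 0 to 4 in each untreated one, and the part of such cells in the results was not tested.

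On activation 1315 genes were higher, 7.99% of those tested, and 373 genes were lower, 2.27% of those tested. Increases made up 77.9% of calls, while the median log2 fold change of all genes tested was -0.02. The median called increase was 1.08 on the log2 scale (quartiles 0.89 and 1.48) and 118 of them reached 2 or more. Called decreases had a median of -0.98 (quartiles -1.22 and -0.83), and 7 of them reached -2 or less. The groups did not overlap for 1314 of the 1315 higher genes and for all 373 lower genes, which the test on the same libraries favours; they did not overlap for 66.4% of all genes tested and for 62.5% of those not called. This balance depended on scaling: after quantile normalization 897 genes were higher and 569 lower, or 61.2% of calls higher. Without a single library, 1092 to 1352 genes were higher and 345 to 410 lower, and 856 and 246 of the original calls were kept whichever library was left out.

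**Figure D1:**
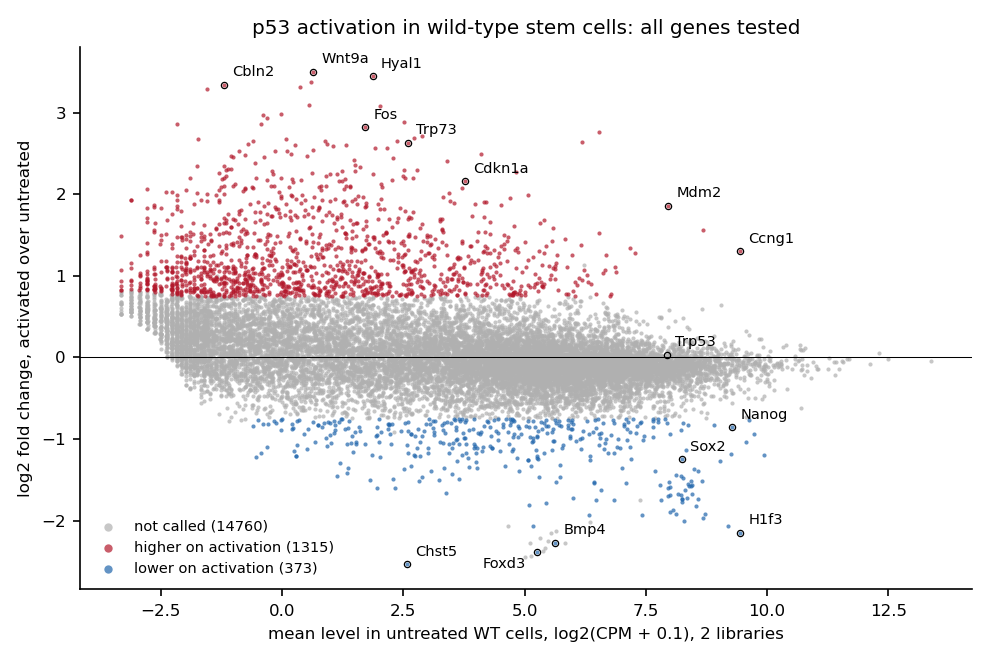
Each point is 1 of 16448 genes tested, with the mean level in 2 untreated libraries on the horizontal axis (log2 of CPM + 0.1) and the log2 fold change of activated over untreated cells on the vertical axis. Red genes (1315) were called higher and blue genes (373) lower; called increases had a median level of 1.23 CPM in untreated cells, and Trp53 itself lies at 0.03.

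Genes of low level in untreated cells made up much of the increase. Of the 1315 higher genes, 597 (45.4%) were under 1 CPM in untreated cells, against 21.7% of all genes tested. The filter fixes part of this, since 399 genes were tested through the activated libraries alone, of which 96 were called higher, and 41 through the untreated libraries alone, of which 2 were called lower. Among the 2410 genes under 1 CPM with both untreated libraries above the filter, 415 were higher and 12 lower. This balance is partly fixed too, since these genes were picked by a low untreated level. The prior count also limits how far such genes can fall. After quantile normalization 306 of the genes under 1 CPM were higher and 70 lower. Reads at otherwise silent genes also differed between libraries: the 1137 olfactory receptor genes, which stem cells do not use, summed to 132 and 217 CPM in the activated libraries and to 133 and 91.7 CPM in the untreated libraries. Activated replicate 2 thus carried more such reads than the other 3 libraries, and 801 genes had no read in it, against 1560 in activated replicate 1 and 1947 and 2604 in the untreated libraries. Without activated replicate 2, 402 genes under 1 CPM were higher in place of 597, whereas the number at or above 1 CPM was 700 in place of 718. At or above 1 CPM, 361 genes were lower. The part of these low-level reads in the calls under 1 CPM was not tested.

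The p53 pathway itself responded clearly at its feedback genes and not at Trp53. Trp53 transcripts (GRCm38, chromosome 11, 69580359 to 69591873) stood at 244 and 256 CPM in activated cells and 249 and 239 CPM in untreated cells. These ranges overlap, and the log2 fold change of 0.03 ± 0.09 (SE) was not called (limma, adjusted p = 0.80). Mdm2 (chromosome 10, 117688875 to 117710758), the ubiquitin ligase that marks p53 for degradation, reached 924 and 897 CPM in activated cells, against 258 and 243 CPM in untreated cells. Both activated libraries lay far above both untreated ones, with a log2 fold change of 1.86 ± 0.09 (adjusted p = 2.7e-95, limma). Of 10 feedback genes and regulators of p53, 5 rose and 0 fell, and the list's median was 0.80 on the log2 scale, against -0.02 over all genes tested. Ccng1, a cyclin that recruits phosphatase to Mdm2, stood at 1816 and 1626 CPM in activated cells and 730 and 661 CPM in untreated cells. Trp53inp1, an inducible cofactor of p53, was at 1254 and 1160 CPM in activated cells and 443 and 378 CPM in untreated cells. Zfp385a (log2 fold change 1.39), a zinc finger protein that binds p53, and the phosphatase Ppm1d (0.89), which removes damage-induced phosphates from p53, also rose. Cop1 and Mdm4, 2 other regulators of p53 protein, were at log2 fold changes of -0.02 and 0.10 and were not called.

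Among 11 genes of the p53 family and of the enzymes that modify p53, 1 rose and 0 fell. That gene was Trp73, whose product p73 is a p53-related transcription factor, at 37.2 and 40.1 CPM in activated cells and 6.29 and 5.61 CPM in untreated cells (log2 fold change 2.63 ± 0.11, adjusted p = 3.0e-128, limma). The damage kinases Atm, Atr, Chek1 and Chek2 had log2 fold changes between -0.19 and 0.00, and none was called. With 7.99% higher and 2.27% lower over all genes tested, 1 call in 11 genes says little about the list.

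Growth arrest genes rose in 6 of 15 cases and fell in 0, and their median was 0.50 on the log2 scale. Cdkn1a (chromosome 17, 29090976 to 29100727), which encodes the cyclin-dependent kinase inhibitor p21, stood at 62.2 and 61.0 CPM in activated cells and 13.7 and 13.3 CPM in untreated cells, a log2 fold change of 2.16 ± 0.10 (adjusted p = 2.3e-110, limma). Plk2, a polo-like kinase, reached 665 and 607 CPM in activated cells, against 92.5 and 93.9 CPM in untreated cells. The antiproliferative gene Btg2 had 466 and 450 CPM in activated cells, against 73.4 and 72.6 CPM in untreated cells. In each of these genes the replicates differed far less than the groups. Btg1 (log2 fold change 1.87), a relative of Btg2, Rgcc (1.64), a regulator of cell cycle kinases, and Rprm (1.34), the G2 arrest protein reprimo, rose as well. Gadd45a, a widely cited p53 target, was at -0.08 and was not called.

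Cell death genes rose in 8 of 20 cases and fell in 0, around a median of 0.62 on the log2 scale. Fas, the death receptor, had 5.65 and 5.24 CPM in activated cells and 1.15 and 0.869 CPM in untreated cells (log2 fold change 2.09 ± 0.17, adjusted p = 1.8e-31, limma). Pmaip1, which encodes the BH3-only protein Noxa, stood at 143 and 129 CPM in activated cells and 45.1 and 39.4 CPM in untreated cells. Ikbip, a p53 target linked to apoptosis, had 71.5 and 64.2 CPM in activated cells and 18.6 and 17.1 CPM in untreated cells. Apaf1, the scaffold of the apoptosome, had a log2 fold change of 1.38, Pidd1, a death-domain protein, 1.36, Eda2r, a receptor of the tumor necrosis factor family, 1.34, Bbc3, which encodes the BH3-only protein Puma, 1.19, and Phlda3, an inhibitor of Akt, 0.95. Bax, the pore-forming effector, was at -0.01 and was not called. Of 10 other BCL2 family genes tested, 0 were higher and 0 lower (limma, and voom likewise). With p unadjusted and under 0.05 there were 2 higher and 3 lower. Values ran from -0.63 for the survival gene Bcl2l1 to 0.58 for Bik. Beside 7.99% higher and 2.27% lower over all genes tested, 0 calls in 10 genes says little.

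**Figure D2:**
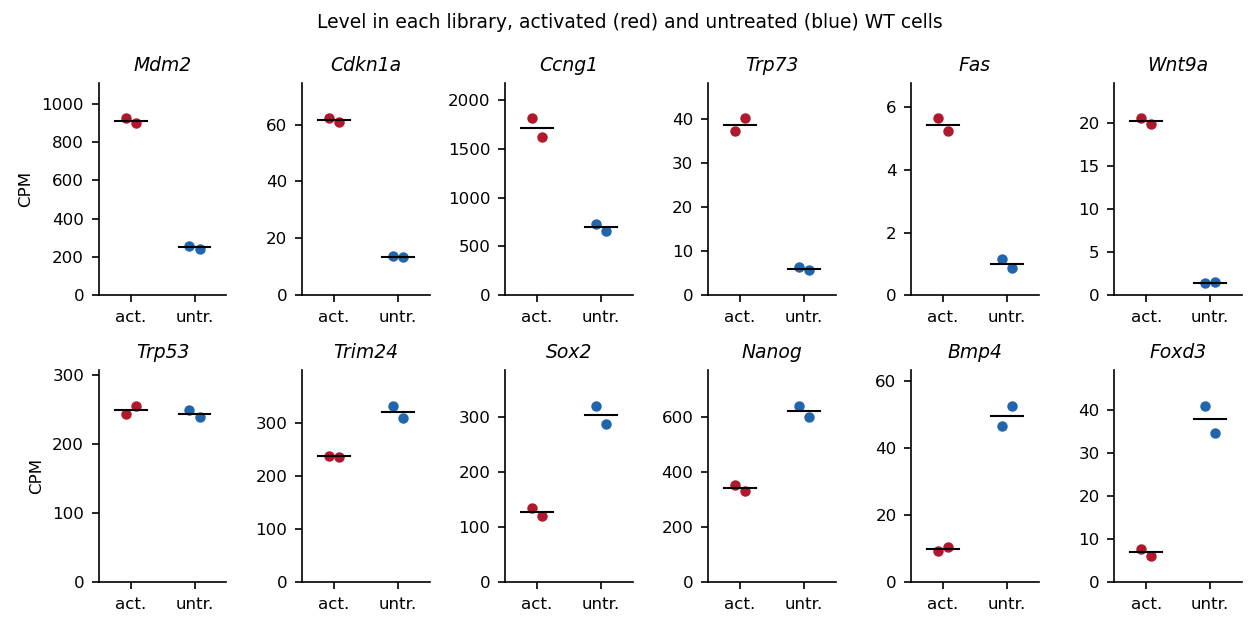
Level of 12 genes in each library, in CPM from 0, with activated cells (red, 2 libraries) left and untreated cells (blue, 2 libraries) right and a bar at the mean of each group. Mdm2, Cdkn1a, Ccng1, Trp73, Fas and Wnt9a are higher in both activated libraries, Sox2, Nanog, Bmp4 and Foxd3 are lower, and Trp53 overlaps.

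Repair and metabolic targets responded in part, beside 7.99% higher and 2.27% lower over all genes tested. Of 11 repair targets 2 rose and 0 fell: Polk, a translesion DNA polymerase, at 99.2 and 93.4 CPM in activated cells and 41.4 and 36.6 CPM in untreated cells, and Ercc5, a nucleotide excision repair nuclease, at 132 and 122 CPM in activated cells and 58.4 and 59.2 CPM in untreated cells. Ddb2 and Xpc, damage recognition factors that p53 controls in human cells, were at log2 fold changes of 0.01 and 0.11 and were not called. Of 19 metabolic and autophagy targets tested, 7 rose and 0 fell (6 without untreated replicate 1). Ddit4, an inhibitor of mTORC1, was the largest, at 143 and 132 CPM in activated cells and 27.2 and 29.3 CPM in untreated cells (log2 fold change 2.27 ± 0.09). Lpin1, a phosphatidate phosphatase, followed at 1.99, then Sesn2, a sestrin that senses leucine, at 1.26, and Aldh4a1, a proline-degrading dehydrogenase, at 1.02. The sestrin Sesn1 was at -0.09 and was not called.

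Signalling and secreted p53 targets had the highest median of the p53 lists, 1.09, with 9 of 17 tested higher and 0 lower. Tap1, the peptide transporter of antigen presentation, stood at 32.9 and 34.5 CPM in activated cells and 4.55 and 5.64 CPM in untreated cells (log2 fold change 2.65 ± 0.11). Inka2, an inhibitor of the kinase Pak4, was at 28.6 and 25.4 CPM in activated cells and 4.74 and 6.59 CPM in untreated cells. The stress cytokine Gdf15 had 7.60 and 8.62 CPM in activated cells and 1.89 and 2.58 CPM in untreated cells. Lif, which encodes the cytokine also supplied in the medium, had 17.5 and 17.6 CPM in activated cells and 5.61 and 6.44 CPM in untreated cells. In none of these genes did the groups overlap. The next 2 lists are short, and over all genes tested 7.99% were higher and 2.27% lower, so their counts say little about a pathway. Of 19 interferon and antigen presentation genes tested 3 rose, among them the immunoproteasome subunit Psmb9 and Tap1, already counted above, and 0 fell. Of 16 inflammatory and NF-kB genes tested 2 rose, the chemokine Cxcl10 (log2 fold change 2.20) and the growth factor Csf1 (1.15), and 1 fell, the transcription factor Irf1 at -0.81. Irf1 lost its call without untreated replicate 2, where its log2 fold change was -0.73. Tnfaip3, a feedback inhibitor of NF-kB, was at 0.18 ± 0.17 and was not called.

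**Figure D3:**
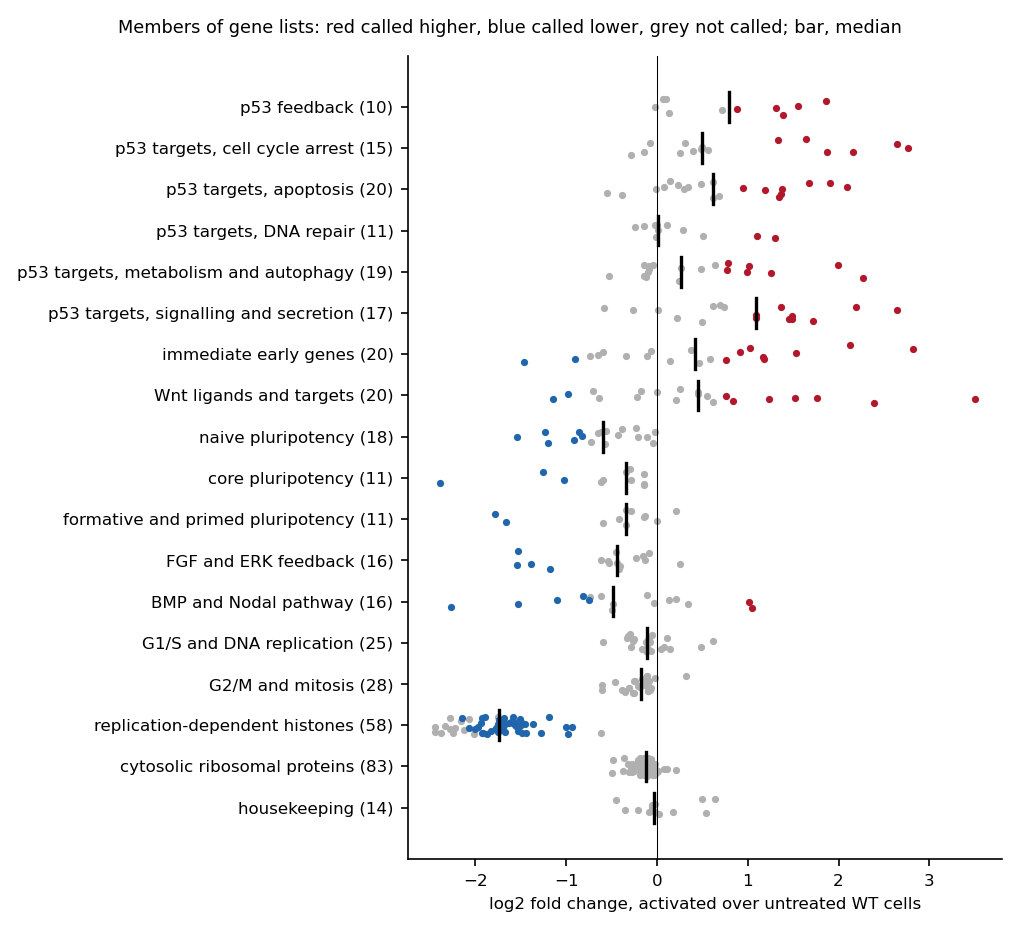
Log2 fold change of activated over untreated WT cells for each tested member of 18 gene lists (number tested in parentheses), coloured by call, with a black bar at the list's median. Called members of the p53 lists lie to the right of 0 and those of the pluripotency and FGF lists to the left, and all 58 replication-dependent histone genes lie below 0.

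A search of promoter windows for the p53 response element placed it near few start sites. Windows of 250 bases before to 50 bases after a RefSeq start (GRCm38.p6) matched 12982 of the 16448 genes tested. The element was searched on both strands as a pair of 10-base half-sites with no spacer, the C and G of each core required and at most 2 mismatches elsewhere. Of the called higher genes with a window, 11 of 1019 (1.08%) held a match, against 1 of 286 (0.35%) called lower and 44 of 11677 (0.377%) not called, and 0.326% of all 32851 RefSeq windows of this length did. A match is a description of letters, and elements outside these windows were not searched. Of the matches, those of the named genes Cdkn1a, Ccng1 and Trp73, which rose, and of Bmp4, which fell, are printed; letters run 5′ to 3′ on the strand of the gene and capitals mark the 20 bases of the match.
Cdkn1a, chr17:29090923-29090952, plus strand, 1 mismatch: ttcagGAACATGTCTTGACATGTTCagccc
Ccng1, chr11:40755457-40755486, minus strand, 1 mismatch: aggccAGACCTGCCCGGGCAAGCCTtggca
Trp73, chr4:154097215-154097244, minus strand, 2 mismatches: tctccGGGCAAGCTGAGGCCTGCCCtgagt
Bmp4, chr14:46390867-46390896, minus strand, 2 mismatches: tacagAGACTAGTTGGTGCATGCTTtctag
The centres of these matches lay 41, 185, 56 and 212 bases before the annotated starts, in the order shown. The Trp73 match lies inside the span of the gene (154056253 to 154140208, minus strand), so its window belongs to an internal start. None of the 9 genes with a window among the 15 largest increases held a match.

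The largest increases were spread over genes of unrelated and often tissue-restricted function. By log2 fold change the first was Wnt9a (chromosome 11, 59306928 to 59333552), a secreted Wnt ligand, at 20.6 and 19.9 CPM in activated cells and 1.39 and 1.53 CPM in untreated cells (3.50 ± 0.14, adjusted p = 2.3e-140, limma). Hyal1, a lysosomal hyaluronidase, had 44.9 and 39.5 CPM in activated cells and 3.07 and 4.05 CPM in untreated cells (3.45 ± 0.11). Foxj1, the transcription factor of motile cilia, had 38.6 and 33.9 CPM in activated cells and 4.06 and 3.84 CPM in untreated cells (3.08 ± 0.11). Separate groups were a condition for this list of 15; all 15 kept their call without any 1 library. The others included the synaptic organizer Cbln2 (3.35), the hair cell transcription factor Pou4f3 (3.32), the ADP-ribosyltransferase gene Art4 (3.29), the matrix protein Spon2 (3.09), the glycogen phosphatase subunit Ppp1r3c (2.98), the muscle actin-binding protein Xirp1 (2.86). Adra2b, an alpha-2 adrenergic receptor, reached 7.54 and 7.55 CPM in activated cells, against 0.774 and 0.540 CPM in untreated cells. Sec14l5 (3.37), of the SEC14-like lipid-binding family, and Gas2l2 (2.86), a cytoskeletal linker, were also among the 15, as were Fos and Duxf3.

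Duxf3, the mouse Dux transcription factor of the 2-cell embryo, stood at 7.70 and 7.77 CPM in activated cells and 0.743 and 0.659 CPM in untreated cells (log2 fold change 2.94 ± 0.17). It lies in a repeat array whose copies share reads, so its level is uncertain. None of the other 11 genes of the 2-cell-like state was called, with the Zscan4c, Zscan4d and Zscan4f genes at 0.12 to 0.13. Wnt genes rose beyond Wnt9a: 7 of 20 Wnt ligands and targets were higher (5 without untreated replicate 1) and 2 lower. Wnt3 had 4.57 and 4.45 CPM in activated cells and 0.496 and 0.659 CPM in untreated cells, and the receptor Fzd1 had 2.52 and 2.19 CPM in activated cells and 0.465 and 0.420 CPM in untreated cells. Wnt10a (1.52) and Wnt8a (1.23) also rose, whereas Axin2, a feedback inhibitor that serves as a readout of Wnt signalling, fell to 7.76 and 7.52 CPM in activated cells, against 17.7 and 16.9 CPM in untreated cells, and the receptor Fzd7 (-0.98) fell as well.

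Immediate early genes, the first genes to respond to growth factors and stress, moved in both directions, with 8 of 20 higher and 2 lower. The share over all genes tested, for this and the next lists, was 7.99% higher and 2.27% lower. Fos, a subunit of the AP-1 factor, had 24.4 and 24.7 CPM in activated cells and 3.38 and 2.97 CPM in untreated cells (log2 fold change 2.82 ± 0.12, adjusted p = 5.6e-116, limma). Ier5 (2.13), Fosl1 (1.53), which encodes a Fos relative, Jun (1.18) and Atf3 (1.03) rose too. The transcription factor Klf6 fell to 18.5 and 19.5 CPM in activated cells, against 56.7 and 49.9 CPM in untreated cells, and Ier3 (-0.91) was the other to fall. In the MYC network Mycn was the largest change, at 25.4 and 27.1 CPM in activated cells and 93.0 and 85.5 CPM in untreated cells (log2 fold change -1.75), while its antagonists Mxd1 (1.23) and Mxd4 (1.01) rose and Myc was at -0.34 and was not called. Of 12 heat shock genes Hspa1a (1.71) and Hspa1b (1.38) rose and 0 fell; this pair is near-identical in sequence, so reads may be shared between them. Of 15 genes of the ATF4 and unfolded protein response, Trib3 (1.43), Sesn2 (1.26) and Atf5 (1.04) rose, while Xbp1 (-0.93) and Atf4 (-0.78) fell, Atf4 losing its call without activated replicate 2 (-0.72).

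All called pluripotency genes were lower on activation, and Pou5f1 did not pass the test. Of 18 naive pluripotency genes 6 fell and 0 rose; their median was -0.60 on the log2 scale, against -0.02 over all genes tested, and all 18 had values below 0. After quantile normalization 4 were called lower. Klf2 had 29.5 and 29.7 CPM in activated cells and 92.4 and 81.0 CPM in untreated cells (log2 fold change -1.54 ± 0.09, adjusted p = 1.6e-65, limma). Zfp42, which encodes Rex1, had 436 and 419 CPM in activated cells and 980 and 978 CPM in untreated cells. Nanog had 353 and 332 CPM in activated cells and 641 and 600 CPM in untreated cells (-0.86 ± 0.09). Replicates were close in each, and the groups did not overlap. Prdm14 (-1.24), which represses lineage genes, the nuclear receptor Nr5a2 (-0.92) and the T-box factor Tbx3 (-0.82) fell too, whereas Esrrb (-0.56), Klf4 (-0.43) and Dppa5a (-0.02) were not called. Of 11 core pluripotency genes 3 fell and 0 rose, among them Sox2 at 135 and 120 CPM in activated cells and 320 and 287 CPM in untreated cells (-1.25 ± 0.09) and Foxd3 at 7.82 and 6.21 CPM in activated cells and 41.1 and 34.9 CPM in untreated cells (-2.38 ± 0.11). Pou5f1 was at -0.14 ± 0.09 (adjusted p = 0.23, limma) with separate groups.

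The called genes of the later pluripotent states were lower. Over all genes tested 7.99% were higher and 2.27% lower, so 0 higher in so short a list says little. Of 11 formative and primed pluripotency genes 2 fell and 0 rose: Otx2, at 12.5 and 12.2 CPM in activated cells and 43.3 and 43.1 CPM in untreated cells, and Zic2, at 2.87 and 3.13 CPM in activated cells and 11.0 and 9.59 CPM in untreated cells. Fgf5, a marker of primed cells, was at -0.59 and was not called. Of 16 FGF and ERK feedback genes 4 fell and 0 rose, with a median of -0.44. They were the sprouty inhibitors Spry4, at 44.1 and 48.7 CPM in activated cells and 143 and 129 CPM in untreated cells, and Spry2 (-1.53), the ligand Fgf15 (-1.39) and the phosphatase Dusp4 (-1.17).

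In the BMP and Nodal pathways 5 of 16 genes fell and 2 rose. Bmp4 (chromosome 14, 46383520 to 46390669), a ligand that sustains self-renewal through Id genes, had 9.46 and 10.5 CPM in activated cells and 46.6 and 52.6 CPM in untreated cells (log2 fold change -2.27 ± 0.10, adjusted p = 1.7e-111, limma). Its targets Id3, at 17.2 and 16.9 CPM in activated cells and 46.9 and 52.8 CPM in untreated cells, and Id1, at 70.9 and 62.8 CPM in activated cells and 145 and 142 CPM in untreated cells, fell as well. Nodal moved the other way, with 250 and 239 CPM in activated cells and 110 and 127 CPM in untreated cells (1.05 ± 0.09), as did Bmp7 (1.01). The Nodal target Lefty1 (-0.82) and the inhibitory Smad gene Smad6 (-0.75) were the other decreases; Lefty1 lost its call without untreated replicate 2 (-0.72), and Smad6 without activated replicate 2 (-0.66) or untreated replicate 1 (-0.69).

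Lineage lists gave calls in both directions, beside 7.99% higher and 2.27% lower over all genes tested. Sox17 (-1.03) and Foxa2 (-1.07) fell and 0 rose of 15 primitive endoderm genes. Among 11 mesoderm genes Mesp1 (1.52) rose and Evx1 (-1.17) and Kdr (-0.76) fell. The transcription factor Gcm1 (1.88) rose and 0 fell of 10 trophoblast genes. Foxa2 lost its call without untreated replicate 1, where its log2 fold change was -0.89, as did Evx1 (also -0.89) and Kdr (-0.69), the last also without activated replicate 1 (-0.70). Of 12 neuroectoderm genes Cbln2 and Pou4f3 rose and 0 fell. In the feeder list of 14 genes, 10 were tested and 2 rose, the collagens Col1a1 (1.78) and Col1a2 (0.78). Col1a2 lost its call without activated replicate 2 (0.66) or untreated replicate 2 (0.62), and after quantile normalization (0.48). Col1a2, Foxa2 and Evx1 also lost their calls with no filter, and with no trend and no robust fitting.

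The 15 largest decreases were 11 histone genes and 4 others, Foxd3, Bmp4, Chst5 and Zfp819. Chst5, a carbohydrate sulfotransferase gene, stood at 0.883 and 0.564 CPM in activated cells and 5.61 and 6.12 CPM in untreated cells (log2 fold change -2.54 ± 0.18, adjusted p = 1.3e-43, limma). Zfp819, a zinc finger gene, stood at 8.74 and 7.90 CPM in activated cells and 36.2 and 35.4 CPM in untreated cells. Both pairs of groups were wide apart. Of the 15, 8 lost their call without either untreated library, all of them core histone genes.

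Replication-dependent histone genes, whose transcripts are made in S phase and lack a poly(A) tail, were called lower in a larger share than any other list. Of 58 tested, 44 fell and 0 rose, all 58 had values below 0, and the median log2 fold change was -1.74. Summed over the list they made up 5360 and 4243 CPM in activated cells and 14738 and 14668 CPM in untreated cells. The linker histones, which are less alike in sequence than the core histones, fell in 5 of 5 cases: H1f3 (chromosome 13, 23555032 to 23555807) had 162 and 153 CPM in activated cells and 725 and 675 CPM in untreated cells (-2.15 ± 0.09, adjusted p = 6.2e-130, limma), H1f2 had 148 and 132 CPM in activated cells and 620 and 557 CPM in untreated cells, and H1f4 had 114 and 96.2 CPM in activated cells and 437 and 388 CPM in untreated cells. H2B genes fell in 16 of 16 cases and H4 genes in 11 of 12. The H2A genes had the lowest median, -2.22, and 2 of 15 were called. Libraries of the same group differed from each other there, as in H2ac11, which had 10.5 and 3.39 CPM in activated cells and 41.4 and 28.2 CPM in untreated cells (adjusted p = 0.19, limma). With a block for the replicate number H2ac11 was called lower, and 57 of the 58 histone genes were. All 10 H3 genes were called, and none of them was without untreated replicate 1 or 2, where the list had 27 and 25 lower genes in place of 44. Without activated replicate 1 or 2 it had 57 in both cases, 14 of them H2A genes. Core histone genes are near-identical copies and reads with several matches were placed at random, so levels of single genes are uncertain, while a sum over a class does not depend on which of its copies a read was given to. Libraries were made from total RNA, which retains these transcripts.

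**Figure D4:**
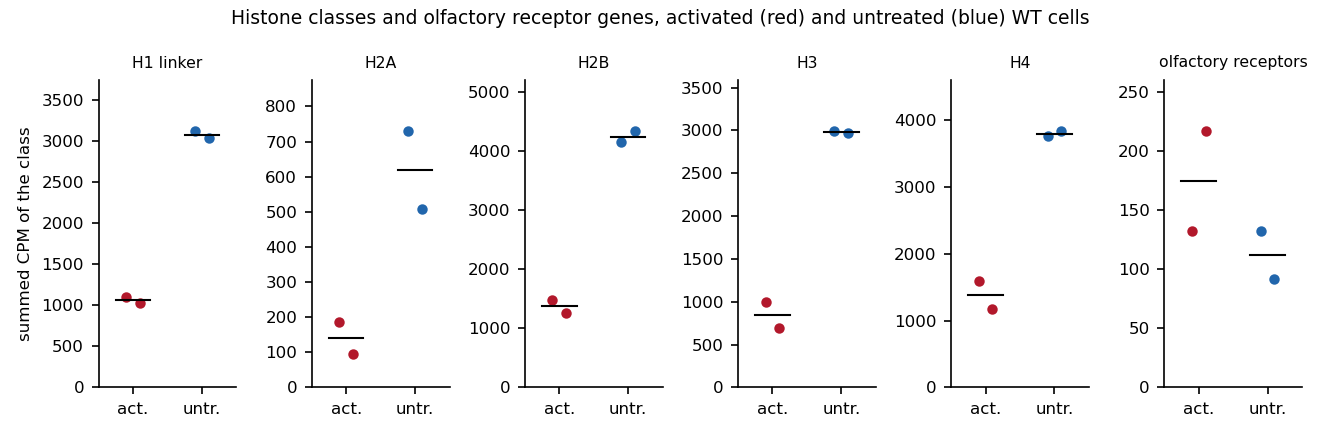
Summed level, in CPM from 0, of the replication-dependent histone genes of each class and of 1137 olfactory receptor genes in activated cells (red, 2 libraries, left) and untreated cells (blue, 2 libraries, right), with a bar at each mean. All 5 histone classes are lower in both activated libraries, and the olfactory sum is highest in activated replicate 2.

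The other genes of proliferation gave few calls. As 7.99% were higher and 2.27% lower over all genes tested, 0 calls in a short list says little. Of 25 genes of G1/S and DNA replication 0 were called by limma or voom, with a median log2 fold change of -0.11, and at an unadjusted p under 0.05 there were 2 higher and 7 lower. Of 28 mitotic genes 0 were called by limma or voom, with a median of -0.17 and 27 below 0. At an unadjusted p under 0.05 there were 1 higher and 14 lower. Of all 16448 genes tested 7832 had values above 0, and genes at or above 1 CPM in untreated cells had a median of -0.07. The largest mitotic values were those of the kinases Aurka and Plk1, both at -0.60. Of 83 cytosolic ribosomal protein genes (median -0.12), 16 homologous recombination genes (-0.12), 15 cholesterol synthesis genes (-0.14), 14 housekeeping genes (-0.03) and 13 mitochondrially encoded genes (0.21), 0 were called by limma or voom. At an unadjusted p under 0.05, 24 ribosomal protein genes were lower and 0 higher, and 7 mitochondrially encoded genes were higher and 0 lower. Of 20 ribosome biogenesis genes Rrs1 (-0.93), an assembly factor, fell and 0 rose, and of 9 genes of DNA methylation the dioxygenase gene Tet3 (1.29) rose and 0 fell. At an unadjusted p under 0.05 without a minimum fold, 3581 genes were higher and 3648 lower over all genes tested. The CDK inhibitor Cdkn2b (p15) rose, at 12.9 and 12.1 CPM in activated cells and 3.69 and 2.76 CPM in untreated cells, and was the 1 of 7 further CDK inhibitors to be called.

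The TIF1 family of Trim24 was measured with its relatives. Trim24 (chromosome 6, 37870811 to 37966296) had 238 and 236 CPM in activated cells and 333 and 309 CPM in untreated cells; the groups were separate and the log2 fold change of -0.43 ± 0.09 passed the p threshold (adjusted p = 4.3e-06, limma) but not the fold threshold. Trim66 rose, with 9.34 and 9.81 CPM in activated cells and 2.54 and 2.07 CPM in untreated cells (1.90 ± 0.14). Trim28 and Trim33 were at -0.14 and -0.34 and were not called. Ptgs2, the inducible cyclooxygenase, had 4.76 and 3.76 CPM in activated cells and 5.85 and 4.83 CPM in untreated cells (-0.31 ± 0.14, adjusted p = 0.084, limma), while of 15 prostanoid genes the prostaglandin E synthase Ptges (0.89) and the receptor Ptger2 (0.93) rose and 0 fell. Ptger2 lost its call without activated replicate 2 (0.74) and after quantile normalization (0.68). It also lost it with no filter, and with no trend and no robust fitting. As 7.99% were higher and 2.27% lower over all genes tested, 2 of 15 says little about prostanoid genes.

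The share of calls varied with gene structure, given here as a description. Among genes with a span in the GENCODE M21 annotation, histones left out, 3.46% of those under 10 kb were lower, 2.02% of those of 10 to 30 kb, 1.12% of those of 30 to 100 kb and 1.02% of those over 100 kb. Higher calls took 8.89%, 8.92%, 7.56% and 5.53% of these classes. Of 392 genes with a single exon, 32 (8.16%) were lower and 47 (12.0%) higher, against 1.84% lower and 7.96% higher of genes with more exons. Sox2 and Foxd3 are single-exon genes of this kind, as is Adra2b.

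Activation in the WT line was set beside the same 4 h of doxorubicin in the Trim24 degron line, which was derived from TC-1 and measured in a separate experiment with 3 activated libraries at 4 h and 3 uninduced libraries at 0 h, no degrader given. In that line 2039 genes were higher (12.9% of 15772 tested) and 915 lower (5.8%). Of the 1315 genes higher in WT cells 1180 were also higher there, 89.7% of the WT list and 57.9% of the degron list, and of the 373 lower in WT cells 313 were also lower, 83.9% and 34.2%. No gene called in both was called in opposite directions. Of the 1288 higher genes tested in both, 6 had a value below 0 in the degron line, none of them called there, and 1 of the 373 lower genes, the xenobiotic oxidase gene Cyp1a1, had opposite signs (-0.95 in WT cells and 0.55 in the degron line). The genes called higher in WT cells and tested in both had a median log2 fold change of 1.10 in WT cells, and of 0.62, 1.56, 2.57 and 2.66 after 2, 4, 8 and 12 h in the degron line. Those called lower had a median of -0.98 in WT cells and of -0.52, -1.20, -1.72 and -1.83 at the same times. Since these genes were chosen by their WT change, the medians are a description.

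**Figure D5:**
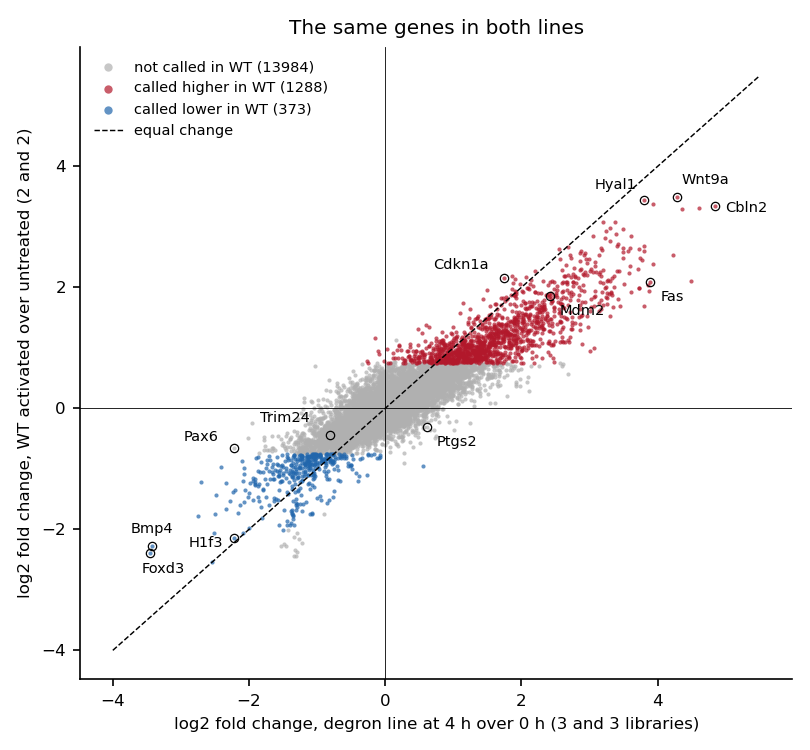
Log2 fold change in WT cells (vertical axis, 2 activated over 2 untreated libraries) against that in the degron line (horizontal axis, 3 libraries at 4 h over 3 at 0 h) for genes tested in both, red where called higher in WT cells (1288) and blue where called lower (373), with a dashed line of equal change. Of the red genes 1065 lie to the right of that line, where the increase was larger in the degron line, as Fas and Cbln2 do.

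The difference between the lines was tested gene by gene in 1 limma fit of the 10 libraries, a test added after the data were seen. The WT response lay above that of the degron line for 56 of 15645 genes (0.358%) and below it for 242 (1.55%). Of these 242 genes, 179 were called higher in WT cells, so their increase was smaller in WT cells; of the 56 genes, 20 were called lower in WT cells, so their decrease was smaller. Fas showed the largest difference among the p53 targets named: it had 5.65 and 5.24 CPM in activated WT cells and 1.15 and 0.869 CPM in untreated WT cells, beside 12.7 ± 2.41 CPM at 4 h and 0.537 ± 0.243 CPM at 0 h in the degron line (SD, n = 3), a difference in log2 response of -1.80. Mdm2 and Cdkn1a differed by -0.55 and 0.42, under the fold threshold (adjusted p = 3.3e-05 and 0.0078, limma). Without any 1 of the 10 libraries the counts were 31 to 62 and 136 to 280, lowest without WT activated replicate 2 in both cases. Line, Trim24 tag, experiment and sequencing depth all differ between these sets of libraries and cannot be told apart.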

How the data were processed

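RNA was sequenced from TruSeq stranded total RNA libraries. Per the authors' notes, base calls were converted with bcl2fastq (2.17 or 2.20) and STAR mapped the reads to mm10; where a read had several places, 1 was drawn at random. Protein-coding genes were counted with featureCounts at default settings, which do not use strand, so reads of overlapping antisense genes cannot be told apart. The authors scaled the counts by TMM in edgeR, and what they deposited is log2 CPM made with 8 as the prior count. The authors left out predicted genes named Gm with a number, of which the tables hold 0.

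Reads were recovered from these log2 values: 100% came out whole within 0.01. All tables share the lowest value of -1.48, so they lie on 1 scale, although the comparisons were first planned as if each table had been normalized alone, and for this reason the 2 lines could be compared. A gene was tested when at least 2 of the 4 WT libraries (3 of 6 in the degron line) lay 0.5 above that value. The fit was limma 3.58.1 (lmFit, eBayes with trend and robust; R 4.3.3) on the deposited log2 values, in place of the edgeR test that the authors used on counts, at their thresholds. With 2 libraries a group, standard errors rest mostly on the spread shared across genes. The very small p-values therefore do not measure the evidence of 2 replicates alone. Without trend and robust, the adjusted p was 0.00050 for Cdkn1a and for Wnt9a (limma). The fit was tested on simulated reads with a dispersion of 0.005 for every gene and no library effects. In the WT design it called 87 of 100 genes changed by 1 on the log2 scale. It called 97 of 100 changed by 2, and 0 of 16350 unchanged genes. Libraries that differ from each other at some genes, as at the H2A genes, were not simulated, so the error of the real calls was not measured.

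The WT groups, the 39 gene lists and their members were chosen with earlier results of these data known. Genes named are Trim24, Trp53, Mdm2, Cdkn1a, Ptgs2, Rgcc and Tnfaip3, the 15 largest increases and 15 largest decreases among called genes with separate groups and at least 1 CPM in a group, and up to 4 members of each list with the largest change; others were chosen after their values were seen. Places come from GENCODE M21 (167 of 181 named genes) or RefSeq GRCm38.p6 (the rest), and promoter sequences from RefSeq GRCm38.p6. Figures were drawn with matplotlib 3.10.9. Alternatives were other scalings, tests, prior counts, filters and thresholds, a replicate block and leaving out each library. Some genes counted among the calls are not reported here by name.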

Additional observations from a re-analysis of the deposited data

Results flagged for a closer look

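The responses of the WT line and the degron line to 4 h of doxorubicin differed for 17 of the 178 named genes measured in both. The test was limma, 1 fit of 10 libraries, at an adjusted p under 0.01 and a difference of at least 0.75 on the log2 scale. For Ptgs2 the 2 values had opposite signs, and its change was not called in either line. Over all genes 298 of 15645 (1.9%) differed, and the named genes were chosen largely for their change in WT cells, so their share is not comparable with this one. Each value here is the log2 response of WT cells minus that of the degron line. Among genes that rose in both lines, the difference was -1.80 for Fas, -1.55 for Wnt3, -1.50 for Cbln2, -1.41 for Trim66, -1.29 for Pou4f3, -1.10 for Trp73, -1.06 for Art4, -0.92 for Apaf1, -0.88 for Cdkn2b and -0.85 for Tap1, so the increase was smaller in WT cells in all 10. Among genes that were lower in both lines it was 1.57 for Pax6, 1.15 for Bmp4, 1.11 for Prdm14, 1.07 for Foxd3, 0.97 for Otx2, 0.85 for Fgf15 and 0.81 for Nr5a2. Pax6, a neural transcription factor gene, was not called in WT cells (-0.65) and fell in the degron line (-2.22). Ptgs2 differed by -0.91, with -0.31 in WT cells and 0.61 in the degron line, and this difference did not pass (limma, adjusted p = 0.010). Every library of each line lay on its own side, in WT cells by a narrow margin. There activated replicate 1 had 4.76 CPM and untreated replicate 2 had 4.83 CPM. The 2 lines come from separate experiments of unlike depth, and these cannot be told apart from the line.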

How the results depend on the processing

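Of 102 called genes among the 181 named, 88 kept their call under every alternative. A change of sign with a call in either fit occurred for 0 of the 181. Genes not called in either fit could change sign, as Tnfaip3 did, from 0.18 to -0.04 after quantile normalization. Counts of calls in WT cells stayed within 1.5 times of 1315 higher and 373 lower with median centring, voom on recovered reads, a prior count of 2, no filter, a stricter filter, no trend, and an adjusted p under 0.05, and moved in 2 settings. With quantile normalization 569 genes were lower, and 306 in place of 597 genes under 1 CPM were higher. With an adjusted p under 0.05 and no minimum fold 2971 were higher and 2956 lower. Leaving out 1 library gave 1092 to 1352 higher and 345 to 410 lower genes, and for the difference between the lines 31 to 62 above and 136 to 280 below, with 146, 136 and 157 below without WT activated replicate 1, activated replicate 2 and untreated replicate 2. A replicate block gave 1286 higher and 386 lower genes in WT cells and 2037 and 906 in the degron line. Deviations of WT libraries with the same number correlated at -0.04 across 16448 genes. This value shows no pairing by number across all genes and cannot exclude one for some genes. With the block 57 of 58 histone genes were lower in place of 44. Counting error limits genes under 1 CPM, where 1 read is about 0.03 CPM, and 2 libraries a group limit every test.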
